A study of Caenorhabditis elegans with 6 samples.

Results

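The genes *ssq-1*, *ssq-2*, *ssq-3*, *ssq-4*, *sss-1* and *sss-2* are 6 of the 21507 genes measured. The names stand for sperm-specific families, class Q (SSQ, 4 genes) and class S (SSS, 2 genes). The genes were chosen by name, with earlier results of these data known. RNA-seq was done on whole bodies of untreated hermaphrodites of *Caenorhabditis elegans* at the final larval stage, L4, with 3 wild-type (N2) and 3 glna knockout libraries. Genes named glna encode glutaminases, which turn glutamine into glutamate, and the labels do not say which of them the knockout removes. Nothing in the labels says that samples of a genotype came from separate cultures, so the spread on which the p-values rest may be only technical.

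Hermaphrodites make sperm during L4 and then switch to oocytes for the rest of their lives. Sperm genes are transcribed in spermatocytes, before the spermatids bud off and leave their ribosomes behind in a residual body. The most abundant products are the major sperm proteins, which build the cytoskeleton on which nematode sperm crawl and which also signal oocytes to mature. The SSQ and SSS families were named for expression restricted to sperm production, as was the SSP family, small proteins related to the major sperm proteins. Because the tissue was the whole animal, fewer sperm cells and less of an RNA per sperm cell cannot be told apart in any value here.

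The libraries held 18443661 to 19861540 reads assigned to genes, and 15169 genes with a mean of at least 10 normalized counts (reads divided by a size factor for each library) were tested. Markers of body wall muscle, intestine, neurons, hypodermis, somatic gonad and germ line all passed that filter, 27 markers in all. In the labels' check, *glna-2* stood at 408 to 519 normalized counts in wild type and at 37.4 to 69.5 in the knockout, *glna-3* at 636 to 761 and 83.1 to 175, and *glna-1* at 255 to 270 and 128 to 187. Knockout replicate 1 stood apart, with 3.58% of its reads on ribosomal RNA genes against 0.331% to 0.763% in the other libraries.

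The 6 genes lie in the same build, WBcel235, in the deposited table and in the Ensembl and RefSeq annotations used for names, and 5 of them lie on chromosome IV. *ssq-2* (T28H11.5, 4996142 to 4997553) and *ssq-4* (T28H11.1, 5016481 to 5017762) are 18.9 kb apart. *ssq-3* (ZC477.1, 7111632 to 7112861) lies alone, while *ssq-1* (K07F5.11, 9852554 to 9853558) and *sss-1* (F32B6.5, 9892739 to 9893749, minus strand) are 39.2 kb apart. *sss-2* (F47B8.11) is on chromosome V, 14346008 to 14346997. All but *sss-1* are on the plus strand.

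The gene models are alike. Each of the 6 has 3 exons and 2 introns in the Ensembl annotation, and the coding length of the 5 protein-coding members runs from 834 bases in *sss-1* to 1215 bases in *ssq-2*. The exception is *sss-2*, which the deposited table lists as protein-coding and which both RefSeq and Ensembl now list as a pseudogene without a coding sequence. It nevertheless had 1421 to 2047 reads in each library. The members' sequences were not compared here, so how reads were divided between members that resemble each other is uncertain.

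Other sperm genes surround several members. Within 20 kb of *ssq-1* lie 5 genes of the sperm lists used here, *msp-10*, *msp-56*, *msp-81*, *nspd-2* and *ssp-10*. *ssq-2* is flanked on both sides by a gene carrying the symbol *ssp-9* (E03H12.10 and T28H11.6). The gene *msp-77* lies 847 bases from *sss-1*. No gene of the sperm lists other than the member itself lies within 20 kb of *ssq-3* or *sss-2*. The libraries are not stated to keep strand, and in the Ensembl annotation T28H11.7 on the minus strand overlaps *ssq-4*. In the deposited table the models of these genes are 208 bases apart.

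All 6 members were abundant in wild type. Per kilobase of the deposited gene length, *ssq-4* stood highest at 5054 ± 1265 normalized counts, followed by *ssq-1* at 4966 ± 1258 and *ssq-2* at 4739 ± 976 (SD, n = 3 each). *sss-1* followed at 2489 ± 499, *sss-2* at 1878 ± 186 and *ssq-3* at 1307 ± 310 normalized counts per kilobase. The values of the 3 leading genes overlapped. The lowest value of *sss-1*, 2088, lay barely above the highest of *sss-2*, 2081. All 3 values of *ssq-2* lay above those of *sss-1*, and all 3 of *sss-2* lay above those of *ssq-3*. By this level *ssq-4* ranked 459th from the top of the 15169 tested genes and *ssq-3* ranked 1681st.

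In the knockout the order of the leading genes was another. *ssq-2* averaged 3633 ± 510 normalized counts per kilobase, *ssq-1* 3224 ± 467 and *ssq-4* 3120 ± 660 (SD, n = 3 each), and their values overlapped. *sss-1*, at 2448 ± 426, overlapped *ssq-4*, from which it was separate in wild type. *ssq-3* remained the lowest, at 746 ± 124.

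**Figure D1:**
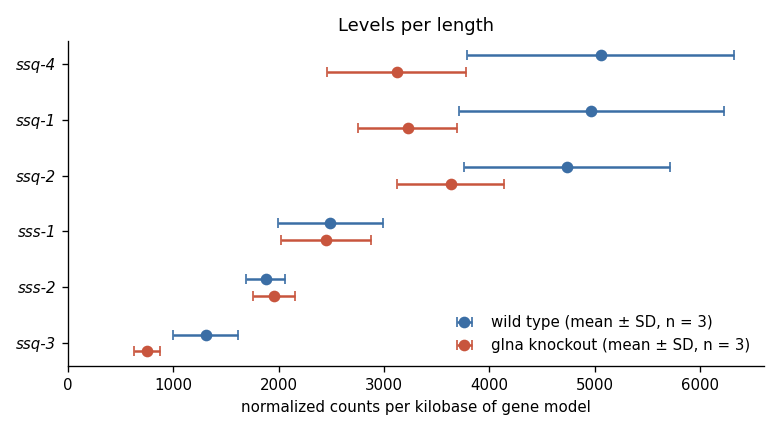
Normalized counts per kilobase of gene model (x axis) for each SSQ and SSS gene (y axis, ordered by wild type), with points for the mean and bars for the SD of 3 wild-type (blue) and 3 knockout (red) libraries. The gap between *ssq-4* and *sss-1* was 5054 against 2489 in wild type and 3120 against 2448 in the knockout.

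The SSQ genes had lower levels in the knockout, and the comparison with wild type asked whether this exceeded the spread between libraries. *ssq-3* stood at 1884, 1231 and 1331 normalized counts in wild type replicates 1, 2 and 3 and at 728, 1001 and 810 in knockout replicates 1, 2 and 3. Every knockout value was below every wild-type value, and the closest pair differed 1.23-fold. The group means were 1482 ± 352 and 846 ± 140 (SD, n = 3 each), which is 1.75-fold lower. The log2 fold change was -0.79 (SE 0.19, 95% interval -1.23 to -0.36), with an adjusted p of 0.0818 in limma and of 0.00653 in the authors' deposited table.

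*ssq-4* stood at 7733, 5008 and 5273 normalized counts in the wild-type libraries and at 3291, 4611 and 3217 in those of the knockout, in the order of replicates 1, 2 and 3. The groups did not overlap, with the closest pair 1.09-fold apart. The means of 6005 ± 1502 and 3706 ± 784 differed 1.62-fold, and the log2 fold change was -0.69 (SE 0.21, 95% interval -1.16 to -0.22). Its adjusted p was 0.121 in limma and 0.0334 in the authors' deposited table.

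*ssq-1* stood at 5828, 3838 and 3862 normalized counts in the wild-type libraries and at 2715, 3415 and 2652 in those of the knockout. The groups again did not overlap, by 1.12-fold at the closest pair. Its mean was 1.54-fold lower, at 2927 ± 424 against 4509 ± 1142, with a log2 fold change of -0.60 (SE 0.19, 95% interval -1.03 to -0.17). The adjusted p was 0.127 in limma and 0.0443 in the authors' deposited table.

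*ssq-2* stood at 7684, 5463 and 5476 normalized counts in the wild-type libraries and at 4932, 5324 and 4023 in those of the knockout. The groups were separate by only 1.03-fold at the closest pair, wild type replicate 2 and knockout replicate 2. The log2 fold change was -0.37 (SE 0.17, 95% interval -0.77 to 0.02), with an adjusted p of 0.240 in limma and of 0.229 in the authors' deposited table.

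The SSS genes had close to equal means in both genotypes. *sss-1* stood at 2801, 1918 and 2143 normalized counts in the wild-type libraries and at 2085, 2697 and 1967 in those of the knockout, and the groups overlapped. Its means were 2288 ± 459 and 2250 ± 392, with a log2 fold change of -0.02 and a 95% interval of -0.43 to 0.39 (limma adjusted p = 0.957). *sss-2* stood at 1860, 1533 and 1643 in wild type and at 1663, 1958 and 1635 in the knockout, again overlapping. Its means were 1679 ± 167 and 1752 ± 179, with a log2 fold change of 0.06 and a 95% interval of -0.23 to 0.35 (limma adjusted p = 0.799). These intervals still allow a change of the size seen in *ssq-2* for *sss-1*, but in *sss-2* not a fall as large as the estimates of the SSQ genes.

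**Figure D2:**
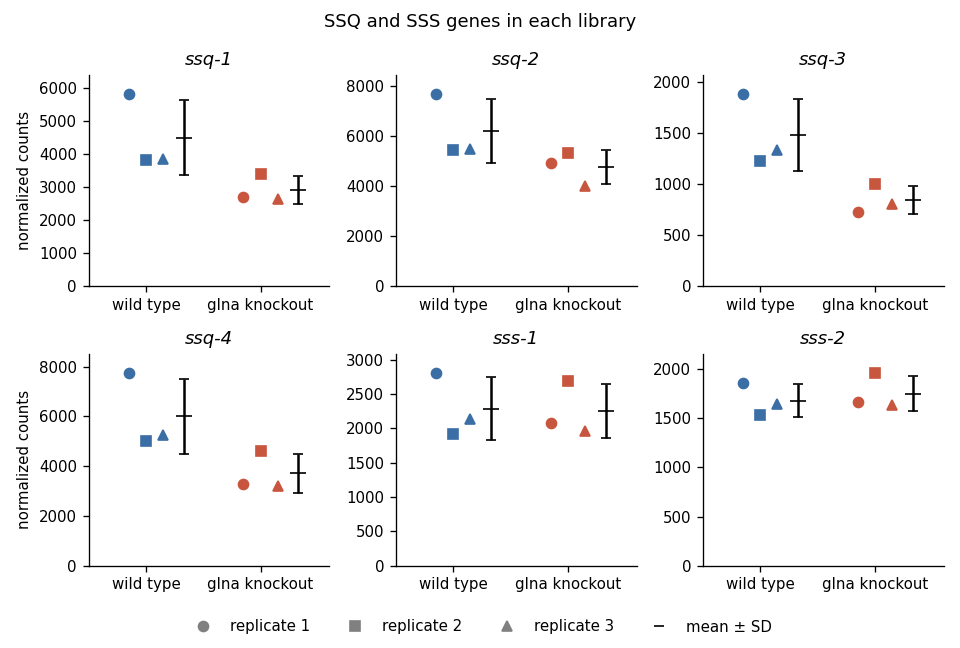
Normalized counts (y axes, each from 0) of the SSQ and SSS genes in each library, with symbols for replicates and a bar for the mean and SD of 3 libraries. The wild-type values (blue) of *ssq-3* lie at 1231 or more and the knockout values (red) at 1001 or less, while those of *sss-1* and *sss-2* overlap.

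Of the 6 members, limma called 0 over all genes tested at an adjusted p under 0.05, where it called 54 genes in all, or 0.356% of those tested (0.145% for genes lower in the knockout). An unadjusted p under 0.05 with a lower level was found for 3 members, *ssq-1*, *ssq-3* and *ssq-4*, against 11.8% of all tested genes. These 3 were also lower in the authors' deposited table, in which 4.13% of the tested genes were lower. DESeq2 run on recovered reads called the same 3 and the same 4.13% over these genes. It returned nearly the authors' own values, so it is not a separate check of their calls. edgeR called 0 members, with 4 at an unadjusted p under 0.05, and 0.033% of all tested genes as lower. Groups that did not overlap, with the knockout lower, were found in 4 of 6 members, the SSQ genes, against 15.2% of all tested genes. The median log2 fold change of the 6 was -0.49, against 0.01 for all tested genes.

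Most of the spread within a genotype was shared by the members. In wild type replicate 1 each of the 6 stood above the mean of wild type replicates 2 and 3, by 0.23 in *sss-2* to 0.60 in *ssq-1* on the log2 scale. In knockout replicate 2 each stood above the mean of knockout replicates 1 and 3, by 0.25 in *sss-2* to 0.50 in *ssq-4*. The summed *msp* genes did the same, at 85686, 60662 and 64712 normalized counts in wild type replicates 1, 2 and 3 and at 57837, 72627 and 59053 in knockout replicates 1, 2 and 3. Counting error was smaller than these differences, at 4.01% for the lowest value, the 622 reads of *ssq-3* in knockout replicate 1. Ratios within a library remove the part of this spread that the members share.

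Set against *sss-1* in the same library, the SSQ genes separated the genotypes more clearly. The ratio of *ssq-4* to *sss-1* was 2.76, 2.61 and 2.46 in wild type replicates 1, 2 and 3 and 1.58, 1.71 and 1.64 in the knockout replicates. That of *ssq-1* to *sss-1* was 2.08, 2.0 and 1.8 in wild type against 1.3, 1.27 and 1.35 in the knockout. The 3 knockout ratios lay close together in both cases, although knockout replicate 1 stood apart in other respects.

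The ratio of *ssq-3* to *sss-1* was 0.673, 0.642 and 0.621 in wild type against 0.349, 0.371 and 0.412 in the knockout, a log2 difference of -0.78 (SE 0.08). For *ssq-2* to *sss-1* it was 2.74, 2.85 and 2.56 in wild type against 2.37, 1.97 and 2.05 in the knockout, a log2 difference of -0.35 (SE 0.09). The difference was -0.67 (SE 0.06) for *ssq-4* and -0.58 (SE 0.07) for *ssq-1*. No wild-type ratio overlapped a knockout ratio for any of these 4 genes. Ratios to *sss-2* also did not overlap for these 4 genes, but their log2 differences had larger SEs, of 0.12 to 0.15. That of *ssq-4* to *sss-2* was 4.16, 3.27 and 3.21 in wild type against 1.98, 2.36 and 1.97 in the knockout. Among all tested genes, 8.15% had ratios to *sss-1* that were lower in the knockout without overlap, and 17.6% had such ratios to *sss-2*. Without a ratio the share was 15.2%, so the clearer separation holds for *sss-1* as the reference.

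All 15 pairs of members were compared in this way, after the levels above had been seen. The ratios did not overlap between genotypes in 8 of 8 pairs of an SSQ with an SSS gene and in 4 of 6 pairs of SSQ genes, and they overlapped in the 1 pair of SSS genes. The pairs share genes and so are not independent, and no share over all genes was computed for ratios to an SSQ gene. An exact two-sided permutation test gave p = 0.1 for each of the 12 pairs without overlap, which is the smallest p that 3 against 3 samples allow, and 0.125 adjusted over the 15 pairs. Every ratio without overlap must give this p, so the test adds nothing to the count of such pairs. Among SSQ pairs, the ratios of *ssq-2* to each of the other 3 did not overlap, nor did that of *ssq-1* to *ssq-3*. For *ssq-2*, the ratio to *ssq-4* was 0.994, 1.09 and 1.04 in wild type against 1.5, 1.15 and 1.25 in the knockout, and its ratio to *ssq-3* was 4.08, 4.44 and 4.11 against 6.78, 5.32 and 4.96. The largest of these knockout ratios were those of knockout replicate 1, but the other knockout libraries also lay above wild type. The ratio of *ssq-3* to *ssq-4* overlapped between the genotypes, at 0.244, 0.246 and 0.252 in wild type against 0.221, 0.217 and 0.252 in the knockout.

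The sum of the 35 *msp* genes listed served as a second reference. Any shared reference gives the members' mean log2 differences the same order, so that order is no further support. Per 1000 summed *msp* counts, *ssq-4* stood at 90.2, 82.6 and 81.5 in wild type replicates 1, 2 and 3 and at 56.9, 63.5 and 54.5 in the knockout replicates. *ssq-1*, *ssq-3* and *ssq-4* were lower in the knockout without overlap, as were 6.12% of all tested genes, while *ssq-2* overlapped. On this scale *sss-1* and *sss-2* were higher in the knockout without overlap, as were 13.0% of all tested genes, at 36.05, 37.1 and 33.3 against 32.7, 31.6 and 33.1 for *sss-1*. The direction of *sss-1* thus depended on the reference, while the mean of *sss-2* was higher in the knockout on either scale. A ratio shows unequal change and not which of its terms changed.

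**Figure D3:**
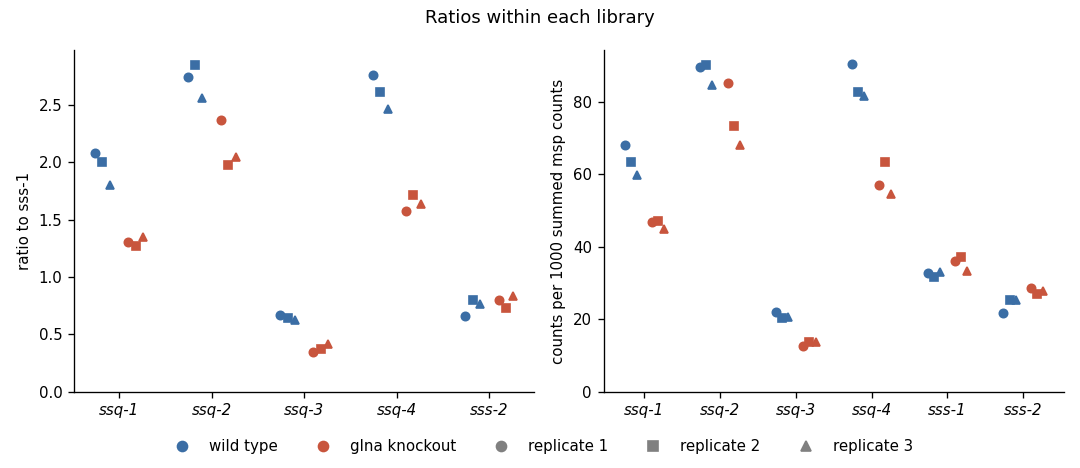
Ratios within each library, with the ratio to *sss-1* on the left axis and normalized counts per 1000 summed *msp* counts on the right (both axes from 0), blue for wild type, red for the knockout and symbols for replicates. For *ssq-4* the wild-type ratios to *sss-1* lie at 2.46 to 2.76 and the knockout ratios at 1.58 to 1.71.

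Most of the other sperm genes measured had log2 fold changes below 0, but limma called 0 of them over all genes tested. Among all 15169 tested genes, 7399 had a log2 fold change below 0, and 11.8% were lower at an unadjusted p under 0.05 in limma. Of 33 *msp* genes tested, 23 were below 0 with a median of -0.16, and 5 were lower at an unadjusted p under 0.05. The *ssp* genes had a median of -0.28 over 12 members, 11 of them negative and 2 at an unadjusted p under 0.05. Among 34 *spe* and *fer* genes, found through mutants with defective sperm, 29 were negative with a median of -0.38, and 15 had an unadjusted p under 0.05. The most abundant per length in these lists, *msp-31*, *msp-40*, *ssp-10*, *ssp-34*, *spe-18* and *spe-11*, had log2 fold changes of -0.37, -0.22, -0.07, -0.27, -0.36 and -0.20.

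The *nspd* genes, for small nematode-specific peptides made in sperm-forming germ lines, stood lower still. All 9 tested had non-overlapping groups, an unadjusted p under 0.05 and a lower level in the authors' deposited table, with a median log2 fold change of -1.68. Among all tested genes, 15.2%, 11.8% and 4.13% met these in turn, each with the knockout lower. Since the family's members can share reads, these are not independent genes. *nspd-2*, a neighbour of *ssq-1*, had means of 1291 ± 461 (wild type) and 420 ± 191 normalized counts (knockout; SD, n = 3 each). The *msd* and *smz* genes, 6 in all, had a median of -0.29 with 1 at an unadjusted p under 0.05. The sperm chromatin genes *spch-1* to *spch-3* with the sperm phosphatase genes *gsp-3* and *gsp-4* had a median of -0.18, also with 1. In that list *spch-1* averaged 4625 ± 631 and 3109 ± 693 normalized counts, without overlap.

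In counts of calls in the authors' deposited table, the SSQ and SSS genes had 3 of 6 lower, the *msp* genes 1 of 33, the *ssp* genes 1 of 12 and the *spe* and *fer* genes 1 of 34. Of all tested genes, 4.13% were lower there. None in these lists was higher there. The difference between the lists was not tested, and *ssq-3*, with -0.79, lay near the lowest *spe* and *fer* gene, at -0.78, and the lowest *msp* gene, at -0.72.

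**Figure D4:**
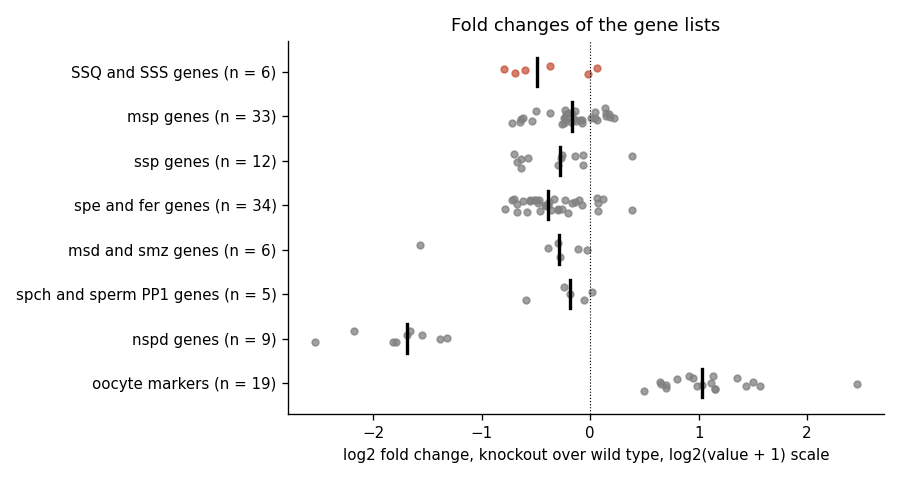
Log2 fold changes of knockout over wild type on the log2(value + 1) scale (x axis) for the tested genes of each list (y axis), with a point for each gene and a black bar for the list's median. The SSQ and SSS genes (red) fall into 4 between -0.79 and -0.37 and 2 near 0, the *nspd* genes lie lowest and the oocyte markers highest.

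Of the 12 genes nearest to the members on either side, 11 were tested, and limma called 0 of them over all genes tested. An unadjusted p under 0.05 was found for 5, against 3434 of all 15169 tested genes in limma. Groups did not overlap in 3 that were lower and 1 that was higher, *cept-2* beside *sss-2*. Among all tested genes, 15.2% were lower and 15.3% higher without overlap. *ssp-10*, 1484 bases from *ssq-1*, had means of 1435 ± 265 (wild type) and 1360 ± 125 normalized counts (knockout; SD, n = 3 each), a log2 fold change of -0.07. T28H11.6, one of the genes named *ssp-9* beside *ssq-2*, had a log2 fold change of -0.63, and T28H11.7 beside *ssq-4* one of -0.37, both with overlapping groups. *msp-77* beside *sss-1* averaged 2663 ± 572 and 2753 ± 158 and overlapped, as did *sss-1* itself. F32B6.4, on the other side of *sss-1*, was lower without overlap, at 956 ± 150 and 713 ± 93.5. The neighbours of *ssq-3*, ZC477.7 and the astacin protease gene *nas-8*, had log2 fold changes of -0.38 and -0.94 without overlap.

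Oocyte markers had higher levels in the knockout, although limma called 0 of 19 (16 had an unadjusted p below 0.05, and 9 were higher in the authors' deposited table). Among all 15169 tested genes, 1648 were higher at an unadjusted p below 0.05 and 608 in the authors' deposited table. All 19 markers had log2 fold changes above 0 (median 1.03), 14 had groups that did not overlap with the knockout higher, against 15.3% of all tested genes, and none was at 0 in any genotype's mean. Their summed level was 24090 to 39349 normalized counts in wild type and 42381 to 105725 in the knockout, highest in knockout replicate 1. The summed markers of the germ line at large overlapped, at 32601 to 37546 and 30553 to 39364. Within wild type, replicate 1 had the highest sums of both oocyte markers and SSQ genes. Within the knockout, replicate 2 had the highest SSQ sum, 14351 normalized counts, and the lowest oocyte marker sum. The part of these markers in the lower levels of the SSQ genes was not tested.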

How the data were processed

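The labels' genotype field gave the groups. The submitters' processing notes name, without roles, the build WBcel235 and the tools featureCounts 1.5.0-p3, DESeq2 1.20.0, HISAT2 2.0.5, CASAVA 1.8 and StringTie 1.3.3b. Per the file headers and values, the deposited signal values are normalized counts, each library's reads having been divided by its size factor. The authors also deposited log2 fold changes with p-values and adjusted p-values, 6267 of them exactly 1. Group means were also deposited. After division by the smallest step of a column, 100% of values were whole reads to within 0.01 read.

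Symbols were taken from Ensembl and from RefSeq locus tags (11452 IDs), and *sss-2* was named by RefSeq only. The 15169 genes averaging at least 10 were fitted on the log2(normalized count + 1) scale with limma 3.58.1 (R 4.3.3; trended empirical Bayes) and Benjamini-Hochberg adjustment. Fold changes on this scale understate those of low genes. Alternatives were edgeR 4.0.16, DESeq2 1.42.0, other filters, pseudocounts and normalization, a replicate block and leaving out each library. The fit was tested on simulated data. Replicates differed by more than counting noise (chi-square of 16.8 to 116 for each degree of freedom).

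Named genes were the members, the *glna* genes, nearest neighbours, the 2 most abundant genes per length of each list and the 5 genes of most similar profile. Other genes were named after their values were seen. Members and lists were chosen with earlier results of these data known. Figures used Python 3.11.15, pandas 2.3.3 and matplotlib 3.10.9.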

Additional observations from a re-analysis of the deposited data

How the results depend on the processing

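The direction of all 4 SSQ genes was the same under all 15 alternatives. Log2 fold changes were -0.92 to -0.61 for *ssq-3*, -0.86 to -0.49 for *ssq-4*, -0.72 to -0.40 for *ssq-1* and -0.46 to -0.21 for *ssq-2*. Not all alternatives are separate checks of direction. Another filter or a replicate block leaves the log2 fold change as in the main fit, and DESeq2 repeated the authors' values. The count of members called was 0 in limma and 3 with the authors' adjusted p and with DESeq2 (*ssq-1*, *ssq-3* and *ssq-4*), and 0 under each other alternative, so the call rests on the tool. Leaving out a library gave *sss-1* values of -0.16 to 0.14, with the sign turned without wild type replicate 1 (0.14), knockout replicate 1 (0.03) or knockout replicate 3 (0.07). *sss-2* ranged from -0.021 to 0.14, turned without wild type replicate 2 (-0.0019) or knockout replicate 2 (-0.021). Each fit's own count of called genes was 54 in limma, 164 without a filter, 19 with a mean of at least 50, 19 with a pseudocount of 0.5, 9 in edgeR, 1236 in DESeq2 and with the authors' adjusted p, and 0 to 247 without one library. The cause was not tested. With a replicate block 688 genes and 0 members were called. Deviations of same-numbered libraries correlated at 0.20, -0.02 and 0.29, and those of different-numbered libraries at -0.37 to 0.13. Whether the numbers pair libraries is not stated in the labels and was not settled by these values. Counting error of the members was at most 4.01% in any library.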

Other observations

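The known regulators of sperm fate and of sperm transcription had log2 fold changes of both signs. They differ in role, so counts over them do not show whether they followed the SSQ genes. Of 11 tested, 5 had log2 fold changes below 0 (median 0.03), against 7399 of all 15169 tested genes. For limma, 0 of the 11 were called, and 2 had an unadjusted p under 0.05, against 3434 of all tested genes. The log2 fold change was -0.13 for *fog-1*, 0.18 for *tra-1* and 0.37 for *tra-2*, which was higher without overlap. *elt-1*, a GATA transcription factor of the germ line and epidermis, had means of 221 ± 27.1 (wild type) and 214 ± 38.3 normalized counts (knockout; SD, n = 3 each). *spe-44*, a transcription factor needed for sperm gene expression, averaged 418 ± 62.6 and 331 ± 37.8, with overlapping groups. *fog-3*, which directs germ cells to become sperm, stood at 105, 159 and 155 normalized counts in wild type replicates 1, 2 and 3 and at 45.6, 61.2 and 114 in the knockout replicates, with an unadjusted p of 0.0180 and an adjusted p of 0.148 in limma. *gld-1*, a translational repressor of the germ line, stood at 8681, 6712 and 6879 in wild type and at 18017, 10449 and 9591 in the knockout, higher without overlap (adjusted p of 0.140 by limma and of 0.0336 in the authors' deposited table).

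Over the 6 libraries, the 5 genes whose log2 profile was most like the mean of the 6 members, out of 6849 that carry a symbol and average at least 100, were *nsph-3.2*, *msd-4*, *acdh-8*, *lcmt-1* and *nssp-7*. Pearson's r with that mean ran from 0.987 for *nssp-7* to 0.998 for *nsph-3.2*. The latter stood at 7183, 5376 and 5488 normalized counts in the wild-type libraries and at 4587, 5386 and 4417 in those of the knockout, so that it shared the high wild type replicate 1 and the high knockout replicate 2. Its groups overlapped, as did those of the other 4. This likeness describes 6 libraries that share their size factors and was chosen as the highest among many genes.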
